A study of Mus musculus with 6 samples.

Results

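The transcriptional response to low oxygen was described here through 33 genes, 25 targets of the hypoxia-inducible factor (HIF) and 8 genes that make up or control that factor. They were chosen by name, and each was represented by its brightest probe set, the probe set with the highest mean over all arrays. All 33 were measured, out of 18193 genes tested on the arrays. The cells were Ba/F3, an interleukin-3-dependent mouse pro-B cell line, carrying the SPAG9-JAK2 fusion, a JAK2 tyrosine kinase joined to the scaffold protein SPAG9, on a doxycycline-inducible retroviral Tet-On system. Cells of the same transduced line were seeded in triplicate with 500 ng/ml doxycycline (induced, 3 arrays) or without doxycycline (uninduced, 3 arrays), and RNA was extracted 48 hours later. Both groups carry the construct, so the comparison is of induced with uninduced fusion, and no array held doxycycline-treated cells without the fusion. The effect of the fusion and that of doxycycline itself therefore cannot be told apart. Whether the line is 1 clone, and the oxygen level and cell density of the cultures, are not stated in the labels.

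HIF is a pair of proteins, an oxygen-labile alpha subunit (HIF-1 alpha from Hif1a, HIF-2 alpha from Epas1) and a stable partner from Arnt. In the presence of oxygen, prolyl hydroxylases of the EGLN family mark the alpha subunit for the VHL ubiquitin ligase, and the asparaginyl hydroxylase from Hif1an blocks its coactivator binding. When oxygen is short, or when growth signals raise synthesis of the alpha subunit, HIF binds short DNA elements with the core letters ACGTG or GCGTG and switches on genes of glucose use, mitophagy, collagen modification and blood vessel growth. In blood-forming cells this programme is best known from the bone marrow niche. Because the alpha subunit is controlled mainly as a protein, its mRNA level does not report its activity, and no protein was measured here.

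The letters that HIF reads are shown for genes described in the following paragraphs, to let the reader place them beside the measured changes. RefSeq promoter windows of build GRCm38.p6 were found for 27 of the 33 genes (34 windows, since a gene can have several starts), and the 250 bases before each start were searched on both strands for ACGTG and GCGTG, where CACGTG counts once on each strand. Bhlhe40, Ndrg1, Epas1, Kdm4b, Lox and Plod2 had no entry. The windows printed are those of Ddit4, Bnip3, Ero1a and Vegfa, the members with the smallest p-values that had an entry, and of Egln1 and Fam162a, which were picked after their values were seen. All 6 lie on the minus strand and are written 5′ to 3′ on it, ending at the base before the start, with each match in capitals. They lie at chr10:59951771-59952020 (Ddit4), chr7:138909507-138909756 (Bnip3), chr14:45318573-45318822 (Ero1a), chr17:46032378-46032627 (Vegfa), chr8:124949255-124949504 (Egln1) and chr16:36071562-36071811 (Fam162a).
Ddit4: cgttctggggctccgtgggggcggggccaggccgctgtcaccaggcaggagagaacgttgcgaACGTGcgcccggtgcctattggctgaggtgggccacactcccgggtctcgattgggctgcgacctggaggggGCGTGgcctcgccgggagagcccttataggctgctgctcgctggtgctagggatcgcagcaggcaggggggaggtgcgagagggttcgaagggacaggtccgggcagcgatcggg
Bnip3: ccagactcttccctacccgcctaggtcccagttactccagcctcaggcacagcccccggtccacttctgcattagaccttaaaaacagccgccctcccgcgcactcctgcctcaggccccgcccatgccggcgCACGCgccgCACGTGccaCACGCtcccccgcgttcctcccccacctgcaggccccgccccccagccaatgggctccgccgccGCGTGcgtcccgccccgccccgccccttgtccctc
Ero1a: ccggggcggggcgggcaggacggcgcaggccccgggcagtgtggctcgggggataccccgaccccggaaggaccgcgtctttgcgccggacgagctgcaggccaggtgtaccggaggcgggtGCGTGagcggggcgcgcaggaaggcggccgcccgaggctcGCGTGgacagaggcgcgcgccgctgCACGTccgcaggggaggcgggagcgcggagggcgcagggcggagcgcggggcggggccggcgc
Vegfa: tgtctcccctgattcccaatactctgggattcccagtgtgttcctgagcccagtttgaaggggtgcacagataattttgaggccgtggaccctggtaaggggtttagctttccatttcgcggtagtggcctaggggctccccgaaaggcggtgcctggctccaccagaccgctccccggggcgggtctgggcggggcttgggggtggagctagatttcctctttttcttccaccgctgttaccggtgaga
Egln1: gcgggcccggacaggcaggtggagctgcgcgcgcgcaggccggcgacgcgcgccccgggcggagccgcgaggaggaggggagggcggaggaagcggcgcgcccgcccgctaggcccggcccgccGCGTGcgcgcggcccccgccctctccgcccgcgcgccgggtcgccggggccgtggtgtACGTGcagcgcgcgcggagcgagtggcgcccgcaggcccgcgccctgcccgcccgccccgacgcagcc
Fam162a: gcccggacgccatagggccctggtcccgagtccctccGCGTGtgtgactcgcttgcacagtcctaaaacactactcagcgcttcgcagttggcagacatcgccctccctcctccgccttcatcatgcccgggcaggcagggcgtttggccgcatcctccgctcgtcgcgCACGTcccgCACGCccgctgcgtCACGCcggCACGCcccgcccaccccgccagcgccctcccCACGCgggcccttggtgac

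Bnip3 held 5 matches, 4 of them starting between 117 and 99 bases before the start, and Fam162a held 6. Ddit4 and Egln1 held 2 each, and Ero1a held 3. After Ddit4, Vegfa, Ero1a and Bnip3, Kdm3a had the next smallest p-value among the members with an entry. It is not printed, and held 1 match over its 3 windows. The Vegfa window at the upstream start held none, whereas the window at an internal start (chr17:46025164-46025413) held 2. That internal window lies inside the gene rather than upstream of it. Only through it does Vegfa count, in the shares that follow, as a target with a match and with ACGTG. Of the 20 targets with a window, 18 (90%) had at least 1 match in some window, and 12 (60%) had ACGTG. Over the tested genes with a window these shares were 53.6% and 22.5%, and over all genes with a RefSeq window 41.5% and 18.5%. G and C made up a median of 60.8% of the target windows and 57.6% of the windows of tested genes, and both motifs contain CpG. Among windows with at least 60% G and C, 12 of 15 target windows (80.0%) and 23.6% of the windows of tested genes held ACGTG. A match is a description of the letters only, and the members were picked as known HIF targets. Among targets with log2 fold changes near 0, Pfkfb3, Pfkfb4, Adm and Car9 each held a match, and the targets without one in any window were Mif and Car12.

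Each array gave signals for 45101 probe sets scaled to a trimmed mean of 500, with median signals from 46.3 to 63.8. Levels below are log2(signal + 16), and a list of 19 liver and brain genes, with a median level of 5.35 and a 90th percentile of 6.06, stood for the level of silent genes, since no detection calls were used here. One of these 19, Mbp, lay at 9.91, and without it the 90th percentile was 5.94. Uninduced replicate 1 stood apart: over all genes its levels correlated with induced replicate 1 at 0.971 and with uninduced replicates 2 and 3 at 0.963 and 0.964, against 0.983 between those replicates. The mouse Jak2 and Spag9 probe sets were not higher in induced cells (log2 fold change -0.54 ± 0.41 SE and -0.92 ± 0.33 SE). Without uninduced replicate 1 both were called lower in limma (-1.03 and -1.27, adjusted p of 0.0317 and 0.0276). On that array Jak2 lay below every induced array, and Spag9 was level with the highest of them. The labels do not say whether these 3′ probe sets lie within the introduced fusion, so they do not check the labels. Of the 9 pro-B markers measured, Cd79b (8.59) and Il3ra (9.16) lay clearly above the silent genes, whereas Pax5, Ebf1, Rag1, Vpreb1, Igll1 and Cd79a lay between 4.29 and 6.16, at or near their level. The erythroid regulator genes Gata1 and Klf1 lay at 11.37 and 11.49, and both were higher on every induced array. Klf1 stood at 1.02 ± 0.16 (adjusted p of 0.0825 in limma, and 0.0308 without uninduced replicate 1), and Gata1 at 0.57 ± 0.20 (adjusted p of 0.230, and 0.111 without that array). The 2 other erythroid markers had negative log2 fold changes and overlapped between the groups. Epor, at a level of 8.31, stood at -0.21 ± 0.23, and Hba-a1, at 4.70, was at the level of silent genes (-0.50 ± 0.33). The 6 myeloid markers summed to signals of 449 to 771 on induced arrays, 407 on uninduced replicate 1, and 1248 and 1187 on uninduced replicates 2 and 3. Of the 6, 4 had a negative log2 fold change, while Mpo and Elane stood at 0.05 and 0.46. With all arrays 0 of the 6 passed in limma (1 at an unadjusted p under 0.05), 1 passed as lower without uninduced replicate 1 (Csf1r, -1.73, adjusted p of 0.0176), and 2 did without both arrays numbered 1. The part of these erythroid and myeloid genes in the results was not tested. The 3′ to 5′ signal ratio of the beta-actin control, a sign of RNA integrity, was 1.57 and 1.60 on the arrays numbered 1 and 1.14 to 1.37 on the other 4, and that of the Gapdh control was 0.609 to 0.697 on induced and 0.688 to 0.793 on uninduced arrays. Their part was not tested either.

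Most hypoxia targets stood lower in cells with the induced fusion, and the lowest log2 fold changes were those of Bnip3, Ndrg1, Ankrd37, Bhlhe40, Ddit4 and Ero1a. Of the 25 targets 22 had a negative log2 fold change, with a median of -0.61 (range -3.07 to 0.52), against a median of -0.06 over all 18193 genes, of which 55.9% were negative and 44.1% positive. A mean level above the 90th percentile of the silent genes was reached by 20 targets and 6 regulators, and by 57.0% of all genes. The 8 HIF subunits and regulators had a median of -0.11, and 5 of them were negative. Of the 25 targets, 11 stood at -1 or lower, which held for 3.99% of all genes. In 15 targets and in Egln1 every induced array lay below every uninduced array, against 13.4% of all genes, and in 1 target, Pfkfb4, every induced array lay above, against 10.7%. One member, Bhlhe40, passed an adjusted p of 0.05 in limma as lower (0.0715% of all genes did) and 0 passed as higher (0.115% of all genes). At an unadjusted p under 0.05, 13 targets and Egln1 were lower, against 10.3% of all genes, and 0 members were higher, against 7.14%. Among the 10364 genes above that percentile of the silent genes, 1891 lay lower without overlap. Of the same 10364 genes, 1422 were lower at an unadjusted p under 0.05 in limma. Of the 20 targets above it, these counts were 14 and 12. P4ha2, at the level of silent genes, was the remaining target in both. Nothing in the labels says that the 3 cultures of a group came from separate experiments, so p-values cover the spread between these cultures, which may be technical. In such mixed RNA, fewer expressing cells and less RNA per cell cannot be told apart.

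**Figure D1:**
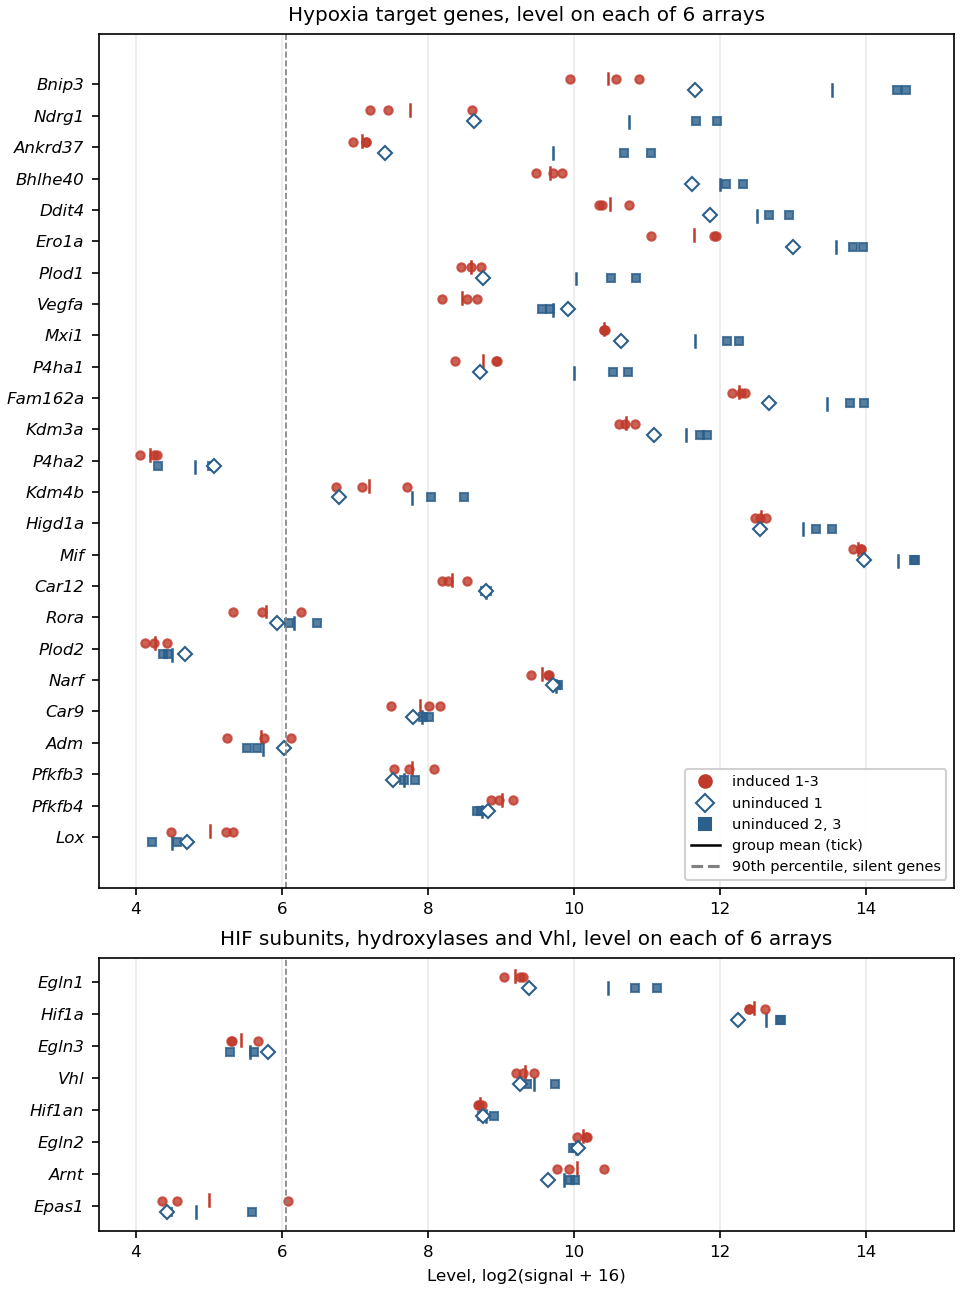
Levels of the 33 genes on each of the 6 arrays, as log2(signal + 16) on the horizontal axis, with 1 gene per row, the 25 targets above and the 8 HIF subunits and regulators in the lower panel. Red circles are induced arrays, the open diamond is uninduced replicate 1, blue squares are uninduced replicates 2 and 3, vertical ticks are group means, and the dashed line is the 90th percentile of the silent genes (6.06). For Ankrd37, Plod1, Mxi1 and Egln1 the diamond lies close to the red circles, whereas for Bhlhe40 and Vegfa it lies with the squares.

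None of the 3 HIF subunit genes was separated between the groups. Hif1a, the source of the main oxygen-labile subunit, had signals of 5400, 5375 and 6280 on induced arrays and 4844, 7209 and 7290 on uninduced arrays. The groups overlapped, because uninduced replicate 1 was the lowest of all 6 arrays, and the log2 fold change was -0.16 ± 0.21 (SE). Arnt, the stable partner, had signals of 1347, 957 and 857 against 783, 1013 and 968 and stood at 0.17 ± 0.22. Epas1, which encodes HIF-2 alpha, had signals from 4.52 to 51.9 on all 6 arrays, at the level of silent genes, so its value of 0.19 ± 0.55 gives no size. In limma 0 of the 3 passed, and 0 had an unadjusted p under 0.05. The sign for Hif1a and Arnt depends on the probe set, as given with the probe sets below.

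Among the genes that restrain HIF, Egln1 was the exception. Egln1 encodes PHD2, the main oxygen sensor of the pathway and itself a HIF target. Its signals were 613, 511 and 595 on induced arrays and 657, 2241 and 1819 on uninduced arrays. The groups did not overlap, but uninduced replicate 1 lay just above the induced arrays, and the log2 fold change of -1.26 ± 0.45 had an adjusted p of 0.235 in limma. Egln2, which encodes the hydroxylase PHD1, had signals of 1145, 1040 and 1129 against 1044, 1004 and 1033 (0.10 ± 0.14), and Hif1an had 413, 399 and 398 against 414, 412 and 464 (-0.09 ± 0.15). Vhl stood at -0.12 ± 0.19. Egln3, the hypoxia-inducible hydroxylase PHD3, had signals from 23.1 to 40.1 on all 6 arrays, at the level of silent genes. In limma 0 of these 5 passed, with 1 (Egln1) at an unadjusted p under 0.05.

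**Figure D2:**
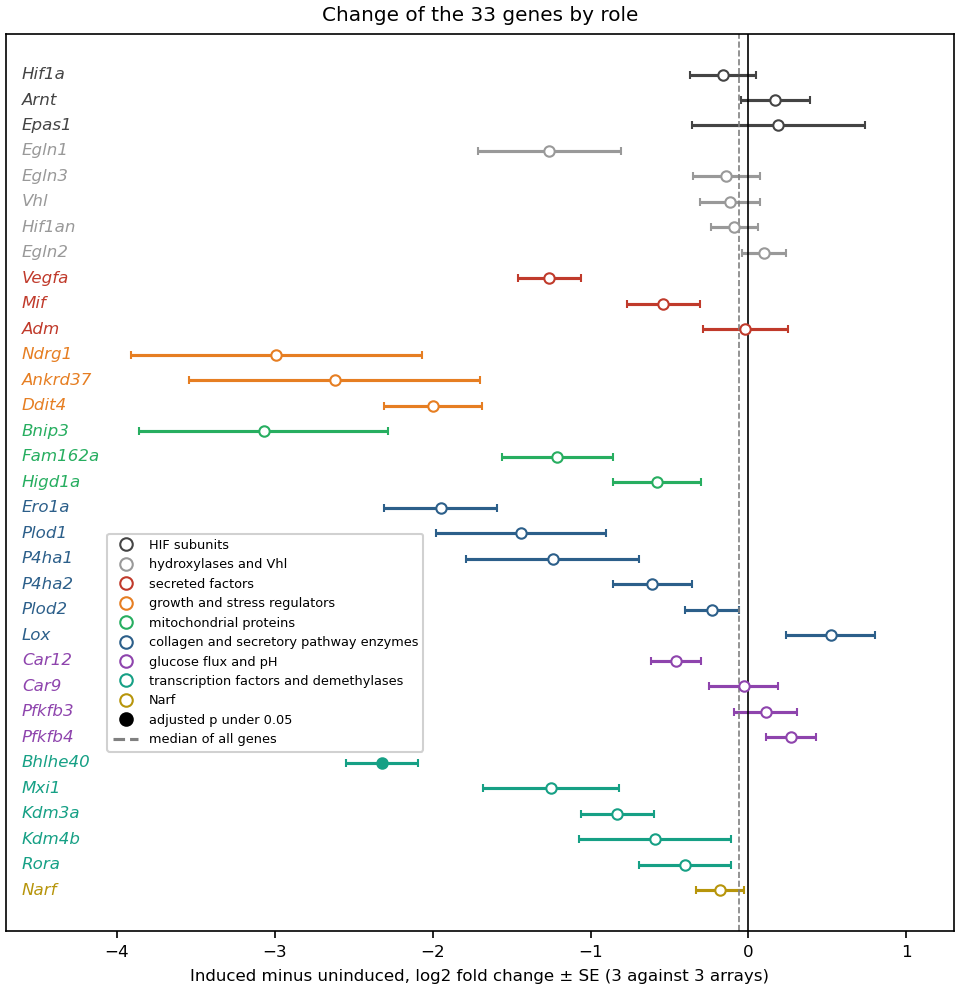
Log2 fold change of each of the 33 genes (induced minus uninduced, 3 against 3 arrays), with 1 gene per row ordered by role and bars showing the SE from limma. The filled point, Bhlhe40 at -2.32, is the gene with an adjusted p under 0.05, and the dashed line is the median of all genes (-0.06).

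Of the transcription factor and demethylase genes, Bhlhe40 fell and the others stood lower by less. Bhlhe40 encodes a basic helix-loop-helix repressor that acts downstream of HIF and in the circadian clock, and it lies at chr6:108660629-108666925. Its signals were 697, 820 and 899 on induced arrays and 3106, 5062 and 4304 on uninduced arrays, so all 3 uninduced arrays, replicate 1 included, were far above the induced ones. It fell by 2.32 ± 0.23 (SE) on the log2 scale, a 5.01-fold decrease with an adjusted p of 0.0396 in limma. Leaving out single arrays gave log2 fold changes from -2.52 to -2.17. The call was kept without uninduced replicate 1 (adjusted p of 0.0133 in limma) and lost without each other array, with adjusted p of 0.0960, 0.175 and 0.180 without induced replicates 1, 2 and 3 and 0.182 and 0.233 without uninduced replicates 2 and 3. It was also lost with the replicate number as a block (0.198), with median centring (0.0784) and with a pseudocount of 1 (0.0965), and the adjusted p over the settings that kept all arrays ranged from 0.00175 to 0.198.

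Mxi1 encodes an antagonist of MYC. Its signals were 1347, 1341 and 1350 on induced arrays and 1586, 4894 and 4329 on uninduced arrays, so that uninduced replicate 1 lay much nearer to the induced arrays than to its own group (-1.25 ± 0.43). Kdm3a, a histone H3 lysine demethylase, had signals of 1799, 1645 and 1558 against 2172, 3592 and 3349, without overlap (-0.83 ± 0.23). The demethylase gene Kdm4b overlapped between the groups, with 94.5 on uninduced replicate 1 against 249 and 343 on the other uninduced arrays (-0.59 ± 0.48). Rora, a nuclear receptor gene, lay near the level of silent genes, with a mean level of 5.98 (-0.40 ± 0.29). Of these 5 genes 1 passed in limma, and 3 had an unadjusted p under 0.05.

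The growth and stress regulators showed wide differences with a wide spread among the uninduced arrays. Ddit4, which encodes the mTORC1 inhibitor REDD1, had signals of 1318, 1716 and 1291 on induced and 3735, 7910 and 6484 on uninduced arrays. The groups were well apart, with uninduced replicate 1 the lowest of its group, between the induced arrays and the other uninduced arrays (-2.0 ± 0.31, adjusted p of 0.0830 in limma). Ndrg1, a stress-responsive gene linked to growth arrest, had 132, 375 and 160 against 381, 3968 and 3244. Here uninduced replicate 1 and induced replicate 2 were nearly level (-2.99 ± 0.92). Ankrd37, an ankyrin repeat gene used as a marker of HIF activity, had 127, 127 and 110 against 155, 2120 and 1627 (-2.62 ± 0.92). All 3 genes lay lower in every induced array, 0 passed in limma, and 3 had an unadjusted p under 0.05.

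Of the mitochondrial genes, Bnip3 had the lowest log2 fold change of the 33. Bnip3 encodes a receptor that marks mitochondria for removal. Its signals were 971, 1880 and 1500 on induced arrays, 3227 on uninduced replicate 1, and 23830 and 21865 on uninduced replicates 2 and 3, giving -3.07 ± 0.79 and an adjusted p of 0.150 in limma. Fam162a, a mitochondrial protein gene that HIF induces, had 5008, 4556 and 5153 against 6507, 15995 and 14016 (-1.21 ± 0.35), again without overlap. Higd1a, which encodes a protein of the respiratory chain supercomplexes, overlapped: uninduced replicate 1 (5976) lay within the induced range of 5694 to 6345, and uninduced replicates 2 and 3 were at 11884 and 10188 (-0.58 ± 0.28). In limma 0 of the 3 passed, and 2 had an unadjusted p under 0.05.

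Enzymes of the secretory pathway split by whether they were above the silent genes. Ero1a encodes the oxidase that drives disulfide bond formation in the endoplasmic reticulum. It had signals of 2115, 3911 and 3859 on induced arrays and 8197, 15880 and 14405 on uninduced arrays, with every uninduced array far above the highest induced one (-1.95 ± 0.36, adjusted p of 0.101 in limma). P4ha1, the catalytic subunit gene of collagen prolyl 4-hydroxylase, had 314, 475 and 479 against 402, 1699 and 1474 and overlapped because of uninduced replicate 1 (-1.24 ± 0.55). Plod1, a collagen lysyl hydroxylase gene, had 409, 335 and 369 against 414, 1829 and 1439, where uninduced replicate 1 was level with induced replicate 1 (-1.44 ± 0.54). Its other probe set, at a level of 5.05 among the silent genes, gave 0.84, and the mean of both gave -0.30 (adjusted p of 0.710 in limma). P4ha2, Plod2 and Lox, the last encoding the collagen cross-linking enzyme lysyl oxidase, had signals from 0.71 to 24.3 on all 6 arrays, at the level of silent genes, and their values of -0.61, -0.23 and 0.52 give no size. In limma 0 of the 6 passed, with 3 at an unadjusted p under 0.05 (Ero1a, Plod1 and P4ha2).

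Of the genes for secreted factors, Vegfa was the one with little spread within either group. Vegfa encodes the angiogenic growth factor VEGF-A. Its signals were 392, 277 and 353 on induced and 954, 801 and 746 on uninduced arrays, and uninduced replicate 1 was the highest of all (-1.26 ± 0.20, adjusted p of 0.0847 in limma). Mif, a cytokine gene of high signal, had 15599, 15599 and 14463 against 16076, 26135 and 25859 (-0.54 ± 0.23). The mouse genome holds near-identical Mif pseudogenes, so its value is uncertain. Adm, which encodes the vasodilator adrenomedullin, had signals from 22.0 to 53.9 on all 6 arrays, near the level of silent genes (-0.02 ± 0.27). In limma 0 of the 3 passed, with 1 at an unadjusted p under 0.05.

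Of the 4 glucose flux and pH genes, Car12 stood lower on every induced array, Pfkfb4 stood higher on every one, and Pfkfb3 and Car9 overlapped. Pfkfb3 and Pfkfb4 encode the bifunctional enzymes that set fructose 2,6-bisphosphate, the activator of glycolysis. Pfkfb3 had signals of 197, 171 and 254 against 167, 187 and 211 (0.11 ± 0.20). Pfkfb4 had 452, 560 and 489 against 436, 392 and 408, higher on every induced array (0.27 ± 0.16, adjusted p of 0.440 in limma). Car9, a carbonic anhydrase gene that is a classic HIF-1 target in tumours, had 273, 165 and 242 against 207, 244 and 229 and overlapped (-0.03 ± 0.22). The related Car12 had 277, 294 and 353 against 429, 432 and 425 (-0.46 ± 0.16), without overlap. In limma 0 of the 4 passed, with 1 at an unadjusted p under 0.05. Narf, which encodes a protein that binds prelamin A, stood at -0.18 ± 0.15, with induced signals of 665, 780 and 792 against 824, 847 and 862.

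The number of targets called turned on uninduced replicate 1. It was the lowest uninduced array for 18 of the 25 targets, whereas this held for 6229 of the 18193 genes. In 18 targets uninduced replicates 2 and 3 both lay above every induced array, against 24.0% of all genes. The median difference over the targets was -0.27 between the arrays numbered 1 and -1.03 between those numbered 2 and 3, and over all genes it was -0.05 in both. Without uninduced replicate 1, limma called 15 members lower, 14 targets and Egln1, against 4.77% of all genes (751 of the 10364 above the 90th percentile of the silent genes), and 0 higher, against 3.22%. The targets were Vegfa, Mif, Ddit4, Ndrg1, Ankrd37, Bnip3, Higd1a, Fam162a, P4ha1, Plod1, Ero1a, Bhlhe40, Mxi1 and Kdm3a. In that fit Ndrg1 stood at -4.05 ± 0.46, Bnip3 at -4.01 ± 0.31, Ankrd37 at -3.77 ± 0.18, Plod1 at -2.09 ± 0.18 and Egln1 at -1.79 ± 0.17, with adjusted p from 0.0130 to 0.0203 in limma. The median over the targets was then -1.05. The labels give no reason to leave that array out, and it was set apart with earlier results of these data known. Without any other single array, limma called 0 members. Without both arrays numbered 1 the counts were again 15 lower, against 5.24% of all genes, and 0 higher, against 2.88%.

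For the 15 genes called without uninduced replicate 1, the place of that array was measured from the mean of the 3 induced arrays (0%) to the mean of uninduced replicates 2 and 3 (100%), on the log2 scale. It lay at 126% for Vegfa, 76.8% for Bhlhe40, 60.7% for Ero1a and 59.5% for Ddit4. It lay at 36.2% for Kdm3a, 29.8% for Bnip3, 25.4% for Fam162a, 21.5% for Ndrg1 and 13.3% for Mxi1. For Egln1 (11%), Mif (10.3%), Ankrd37 (8.40%), Plod1 (7.51%), Higd1a (-0.701%) and P4ha1 (-2.45%) it was close to the induced mean. The difference between the arrays numbered 1 depends on induced replicate 1 as well, which for Ero1a (2115), Bnip3 (971) and Ndrg1 (132) was the lowest induced array. Since these 15 genes were picked by a contrast of the other arrays, the places are a description, and with 1 array they have no replicate check.

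**Figure D3:**
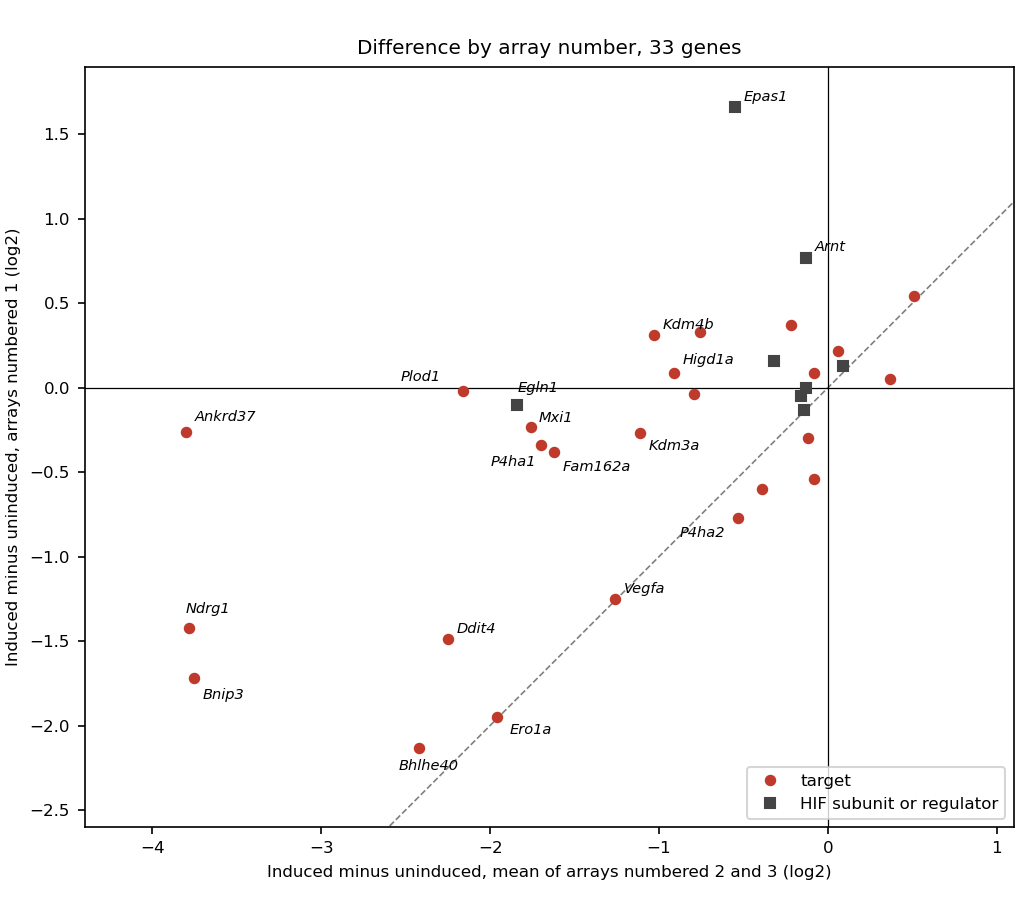
Difference between induced and uninduced cells for each of the 33 genes, from the arrays numbered 2 and 3 on the horizontal axis and from the arrays numbered 1 on the vertical axis, both in log2 units. On the dashed line both differences are equal. Vegfa, Ero1a and Bhlhe40 lie near it, Ero1a with a low induced replicate 1 (2115 against 3911 and 3859), while Ankrd37 (-3.80 and -0.26), Plod1 (-2.16 and -0.02) and Egln1 (-1.84 and -0.10) lie near 0 on the vertical axis.

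The 33 genes had 78 probe sets in all, and 23 genes had more than 1. Bhlhe40, Bnip3, Ddit4 and Ankrd37 were among the 10 with a single probe set, so they have no check of this kind. Of the 45 probe sets not used, 23 lay above the 90th percentile of the silent genes. Among the 15 of these that belong to targets, 11 had the same sign as the probe set used. The 4 others of Ndrg1 gave from -3.71 to -2.41, the 2 others of Ero1a gave -2.18 and -2.01, and the others of Vegfa, Mxi1 and P4ha1 gave -0.84, -1.01 and -0.61. Those of Higd1a gave -0.99 and -0.43. The other 4 belonged to 3 genes: Car12 (0.19 in place of -0.46, and -0.13 for the mean of its probe sets), Pfkfb3 (-0.06 in place of 0.11) and Narf (0.00 and 0.04 in place of -0.18). The second Egln1 probe set gave -1.38. For Hif1a the 2 others above the silent level gave 0.00 and 0.62 in place of -0.16, for Arnt the 4 others gave from -0.44 to -0.08 in place of 0.17, and for Vhl the other gave 0.17 in place of -0.12, so that no direction is given for these 3 genes.

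**Figure D4:**
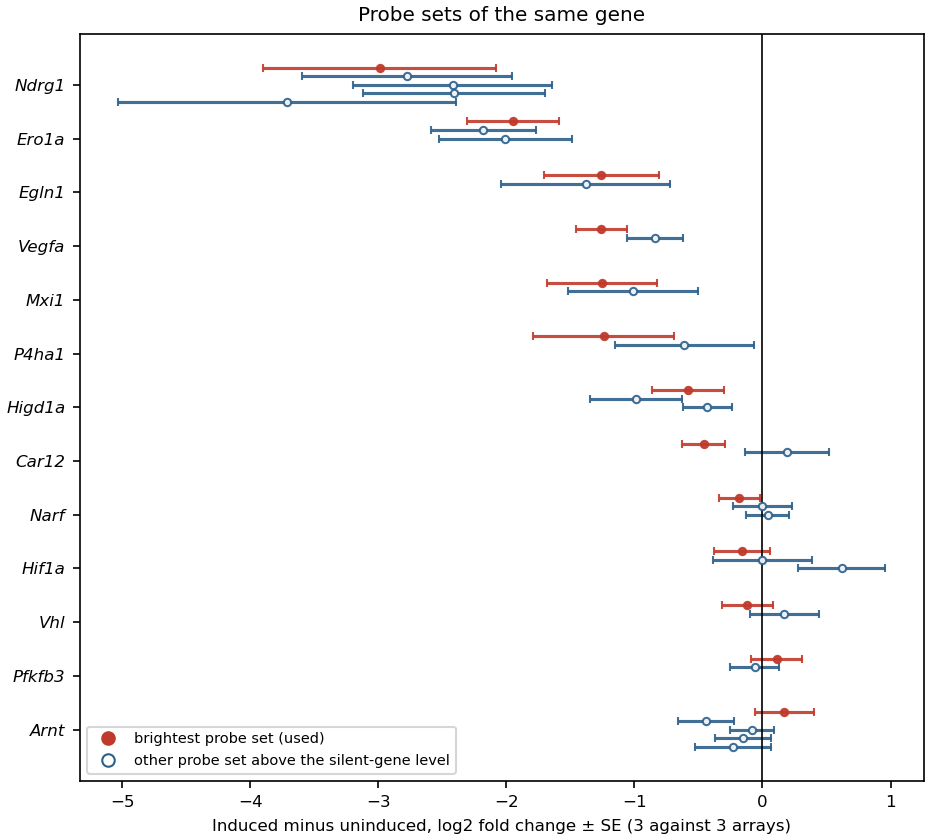
Log2 fold change with SE (induced minus uninduced, 3 against 3 arrays) of each probe set above the silent-gene level, for the genes with more than 1 such probe set. Red points are the brightest probe sets, which represent the genes, and open blue points are the others. The probe sets of Ndrg1, Ero1a, Egln1, Vegfa, Mxi1, P4ha1 and Higd1a all lie below 0, and those of Car12, Narf, Hif1a, Vhl, Pfkfb3 and Arnt fall on both sides of 0 or at it.

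The other genes of the pathway were taken from 3 further lists that share no gene with the 33. Their counts stand beside shares of all genes of 10.3% lower and 7.14% higher at an unadjusted p under 0.05, 4.77% lower and 3.22% higher without uninduced replicate 1, and 55.9% negative. Of the machinery of HIF turnover and coactivation, 19 of 22 genes were measured, with a median log2 fold change of -0.07. In limma 0 passed, and 5 were lower and 0 higher at an unadjusted p under 0.05. The 4 with the smallest p were Siah1a and Siah2, ubiquitin ligases that act on the EGLN proteins (-0.93 ± 0.22 and -0.49 ± 0.19), Ubxn7, an adaptor that links HIF-1 alpha to the segregase p97 (-0.93 ± 0.22), and Arntl, the clock partner related to Arnt (-0.69 ± 0.17). Without uninduced replicate 1 limma called 1 of them, Ubxn7, as lower. Of glycolytic HIF targets 16 of 19 were measured, with 15 negative and a median of -0.76. In limma 0 passed with all arrays (6 lower and 0 higher at an unadjusted p under 0.05) and 9 were lower without uninduced replicate 1. The 4 with the smallest p were the glucose transporter genes Slc2a3 (-1.12 ± 0.21) and Slc2a1 (-1.47 ± 0.52), the phosphoglycerate kinase gene Pgk1 (-0.87 ± 0.27) and Pdk1 (-1.5 ± 0.47), whose kinase holds pyruvate back from the mitochondrion. For 12 of the 16 genes the groups overlapped, as they did for 13810 of all 18193 genes. The median difference over the list was -0.06 between the arrays numbered 1 and -0.99 between the others. For Slc2a1 these differences were -0.22 and -2.09, and for Pdk1, which overlapped, 0.06 and -2.28.

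Of 28 other HIF targets measured out of 32, 19 were negative (55.9% of all genes were), with a median of -0.35. In limma 0 passed with all arrays (10 lower and 1 higher at an unadjusted p under 0.05), and 10 were lower and 1 higher without uninduced replicate 1. The 4 with the smallest p were Lonp1, a mitochondrial protease gene (-1.23 ± 0.19), Insig2, a regulator of sterol synthesis (-0.84 ± 0.19), Kdm4c, a histone demethylase gene (-0.71 ± 0.19), and Tfrc. Tfrc encodes the transferrin receptor for iron uptake, and went the other way, at 1.5 ± 0.28, with levels of 13.52, 14.06 and 13.66 on induced and 12.77, 12.05 and 11.90 on uninduced arrays. It was the 1 gene of this list called as higher without uninduced replicate 1 (adjusted p of 0.0216 in limma).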

How the data were processed

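The authors deposited linear signal intensities for 6 Affymetrix mouse 3′ arrays, made with Affymetrix Expression Console 1.4.1 per the submitters' processing notes, which name no summary algorithm here. On every array the mean signal was 500 once the top and bottom 2% were trimmed. The deposited signals were used on the scale log2(signal + 16) without normalizing them again. Of 45037 non-control probe sets, 34945 had exactly 1 gene symbol, and the brightest per gene gave 18193 genes. Groups and replicate numbers came from the labels' titles. The fit used limma 3.58.1 under R 4.3.3, with lmFit and eBayes on 4 residual degrees of freedom. Tests were two-sided, and p-values were adjusted by Benjamini-Hochberg across the 18193 genes at a threshold of 0.05. The code was tested on simulated data. Fold changes on this scale understate those of dim genes, and with 3 arrays a group the precision is limited. The members, lists and tests were chosen with earlier results of these data known. All 33 members are named, with the 4 genes of smallest p from each further list. The genes under other observations were added after values were seen. Alternatives covered the replicate number as a block or batch, centring, quantile normalization, filters on dim genes, the probe set rule, pseudocounts of 1 and 64, the variance model and left-out arrays. Figures were drawn with matplotlib 3.10.9.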

Additional observations from a re-analysis of the deposited data

How the results depend on the processing

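The 34 genes called over all genes, 1 of them a member, changed with most settings. The counts were 342 and 4 with the filter at the median, 255 and 4 with a pseudocount of 64, and 550 and 4 with trended and robust variance, the 4 being Bhlhe40, Ddit4, Ero1a and Vegfa each time. They were 1477 and 15 without both arrays numbered 1. They were 0 and 0 with a pseudocount of 1 (2807 genes at an unadjusted p under 0.05 in limma) and 0 and 0 with the replicate number as a block (3269 unadjusted). Over all genes 19 were called with the most variable probe set, members were 0 with median centring and 2 with replicate 1 as a batch. Leaving out single arrays gave from 0 to 1453 genes and from 0 to 15 members, the highest without uninduced replicate 1. The deviations of same-numbered arrays from their group means correlated at 0.173, 0.0776 and 0.0842, and each array correlated best with its own number, but the labels name no shared experiment. In the settings that kept all members, the median over the 25 targets ranged from -1.05 to -0.49 and over the 8 regulators from -0.15 to 0.00, the former at -1.05 without uninduced replicate 1. Median centring moved the median of all genes from -0.06 to 0.01 and the calls from 21 higher and 13 lower to 24 and 6. The mean of probe sets moved Plod1 from -1.44 to -0.30, Spag9 from -0.92 to -0.10 and Siah1a from -0.93 to -0.49. Signs turned, all but that of Car12 (-0.46) in genes with a main value between -0.18 and 0.19: with the mean of probe sets Hif1a (0.00), Arnt (-0.14) and Vhl (0.02); with the most variable one Hif1a (0.62), Arnt (-0.23), Vhl (0.17), Car12 (0.19) and Narf (0.00); with median centring and quantile normalization Adm (0.04 and 0.04) and Car9 (0.04 and 0.08); without both arrays numbered 1 Epas1 (-0.55) and Arnt (-0.13). Leaving out single arrays gave Epas1 from -0.35 to 0.58, Arnt from -0.02 to 0.31, Vhl from -0.22 to 0.02, Adm from -0.23 to 0.21, Pfkfb3 from -0.03 to 0.24 and Car9 from -0.16 to 0.17.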

Other observations

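Gys1 and Gbe1, glycogen synthesis genes and also known HIF targets, were picked out after their values were seen. So were Ak4, Selenbp1 and Nfil3 below, which had the lowest log2 fold changes of their list. All come from the list of other HIF targets, where 19 of the 28 measured genes were negative and 9 positive. Other genes of glycogen metabolism in the same list were split. Pgm1 stood at -0.99 ± 0.35, Pgm2 at 0.18 ± 0.23, and Ppp1r3c, at a level of 5.26 among the silent genes, at 0.22 ± 0.49. Gys1, the glycogen synthase gene, had signals of 355, 272 and 353 on induced arrays and 411, 1545 and 1280 on uninduced arrays, and Gbe1, the branching enzyme gene, had 162, 159 and 233 against 167, 1043 and 816. Uninduced replicate 1 was close to the induced arrays for both, with log2 fold changes of -1.49 ± 0.49 and -1.46 ± 0.65 over all arrays and adjusted p of 0.0149 and 0.0172 in limma without that array. Ak4, a mitochondrial adenylate kinase gene, had 1019, 903 and 755 against 1089, 4367 and 3873. Selenbp1, a selenium-binding protein gene, had 1274, 944 and 932 against 1345, 12513 and 10336, and stood at -2.41 ± 0.83. Nfil3, a transcription factor gene named for interleukin-3, had 164, 728 and 747 against 780, 3927 and 3381, with uninduced replicate 1 nearly level with induced replicates 2 and 3, and stood at -2.23 ± 0.81 (adjusted p of 0.237 in limma, and 0.0697 without uninduced replicate 1).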
